A study of Mus musculus with 27 samples.

Results

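The genes described here are 9 non-muscle and unconventional myosin heavy chains, Myh9, Myh10, Myh14, Myo1c, Myo1d, Myo1e, Myo5a, Myo6 and Myo10, followed in mouse embryonic stem cells after knockdown of polypyrimidine tract binding proteins. They are 9 of the 53379 genes in the table of RNA levels, were found there by symbol, and belong to a family of 38 myosin heavy chain genes in that table. All 9 passed the filter on low values, and each passed it in the control libraries as well as in the knockdown libraries. The 9 were chosen by their values after knockdown in these same libraries, in which Myo1d was lower and the other 8 were not called, and Myo1d is set against the others for that reason. Its knockdown values are therefore given as a description without a test, and the knockdown counts of the other 8 support no statement about the family.

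Every library came from E14, a mouse embryonic stem cell line, grown on gelatin in medium with LIF, a cytokine that holds such cells undifferentiated. Small interfering RNAs were given at seeding and a second time 24 h later, and the cells were separated into fractions at 48 h. The control siRNA was directed against eGFP (siGFP), the knockdown siRNA against Ptbp1 (siPTBP1), and a combination against Ptbp1 and Ptbp2 (siPTBP1+siPTBP2, called the double knockdown). All groups thus share the cell line, the medium and 2 rounds of transfection, and both knockdowns contain siRNA to Ptbp1. For each treatment, polyadenylated RNA of the cytoplasm (CY), the nucleoplasm (NP) and chromatin (CH) was sequenced in 3 replicates that the series describes as biological, which makes 9 groups and 27 libraries. Levels are in TPM, the share of transcripts per library after correction for transcript length, so levels of different genes can be compared.

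Myosin heavy chains carry a motor head that binds actin and splits ATP, a neck that binds light chains or calmodulin, and a tail that sets the partner or cargo. Non-muscle myosin II, built on Myh9 (IIA), Myh10 (IIB) or Myh14 (IIC), forms bipolar filaments that contract the cortex and the cytokinetic ring of nearly every cell. The unconventional myosins do not form such filaments: the class I motors tie membranes to actin, Myo5a and Myo6 carry cargo towards opposite ends of actin filaments, and Myo10 travels to the tips of filopodia. Ptbp1 encodes an RNA-binding protein that represses exons and introns next to pyrimidine-rich stretches, and Ptbp2 is its paralog of neurons.

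Between 11837 and 19509 genes per library had a TPM of at least 1, and the number of reads is unknown because TPM keeps none. All 10 embryonic stem cell markers averaged at least 1 TPM in every group. Their summed level was 4360 to 4560 TPM in siGFP CY and 3370 to 4140 after siPTBP1, while the summed muscle markers were 15.9 to 22.2 and 19.3 to 24.2 TPM and the summed fibroblast markers 10.5 to 15.8 and 7.66 to 14.8. With the replicate block, a fit described with the processing that takes account of replicate number, 4 of the 10 stem cell markers (Nanog, Zfp42, Klf4 and Fgf4) were lower in double knockdown CY (adjusted p = 0.00274 to 0.0385), a comparison in which it called 2.65% of all genes, and without it 0 were, with 3 at an unadjusted p under 0.05. Their part in the differences below was not tested. Ptbp1 itself left 22.4% of its control level in CY after siPTBP1, 26.7% in NP and 47.2% in CH. Its log2 difference was -2.15 in CY (limma, adjusted p = 0.000853) and -1.89 in NP (adjusted p = 0.00375), and in CH it was -1.05, which passed with the replicate block and not without it (adjusted p = 0.16, and 0.00541 with the block). Ptbp2 in the double knockdown stood at 48.0% of control in CY, a difference that was called with the block and not without it (adjusted p = 1.0, and 0.00113 with the block). The libraries of replicate 1 stood apart: in all 9 groups replicates 2 and 3 were closest to each other, at a root mean square log2 difference of 0.45 to 0.73 over the genes tested, against 0.61 to 0.98 from replicate 1. Values without the replicate 1 libraries are given beside the results whose call they change.

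Myo1d (ENSMUSG00000035441) encodes a class I motor that links membranes to actin and is known for its part in left-right asymmetry. It lies on chromosome 11 from 80482126 to 80780025 on the minus strand (mm10), with 3 annotated transcripts, of which 2 are protein coding and 1 retains an intron. Whether reads of a relative could be counted for it was examined on the GENCODE M21 transcripts. None of its 6435 distinct stretches of 31 bases occurs in an annotated transcript of another gene. Introns were not searched, and C030013C21Rik, annotated as sense intronic, overlaps Myo1d on the same strand. The longest stretch it shares with any other myosin has 24 bases, with Myo1a, a brush border motor, and with Myo1g it shares at most 21. The Myo1a and Myo1d windows of 60 coding bases around that stretch are shown because they mark how far the family resembles Myo1d, with the shared bases in capitals. The Myo1d window lies in exon 15 of 22 (chr11:80640258-80640317, minus strand) and that of Myo1a in exon 17 of 27 (chr10:127714932-127714991, plus strand).
Myo1d: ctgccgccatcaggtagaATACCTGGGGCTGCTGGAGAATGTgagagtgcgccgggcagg
Myo1a: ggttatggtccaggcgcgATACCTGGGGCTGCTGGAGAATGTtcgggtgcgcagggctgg
The bases next to the capitals differ on both sides, and Myo1a itself averaged 0.477 TPM in siGFP CY. Among the other members, 100 stretches of 31 bases are shared by Myh9 and Myh10, and the part of a gene's stretches found in any other gene ranged from 0.0351% in Myo1e to 1.29% in Myo1c. Levels of these 8 could thus hold a small share of reads of other genes.

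In control cytoplasm the members spanned a wide range of levels. Myo10 (chromosome 15, 25622525 to 25813673, plus strand), the filopodial motor, was at 67.7, 126 and 112 TPM in replicates 1 to 3 of siGFP CY. Myh9 (chromosome 15, 77760587 to 77842175, minus strand) was at 49.5, 69.3 and 61.2 TPM, and Myo1c (chromosome 11, 75650504 to 75673910, plus strand), a class I motor of vesicle delivery, at 56.1, 60.3 and 59.5. In this order each overlapped the next, and they formed the top. Myh10 (chromosome 11, 68691559 to 68816632, plus strand) followed at 24.0, 48.7 and 39.0 TPM, apart from the genes above and below it. Myo5a (chromosome 9, 75071015 to 75223688, plus strand), the carrier of pigment granules, had 13.1 ± 5.95 TPM (SD, n = 3). Myo1e (chromosome 9, 70207350 to 70399766, plus strand), a class I motor of endocytosis and the kidney filter, had 11.4 ± 4.55 TPM. Myh14 (chromosome 7, 44605803 to 44670843, minus strand) had 9.91 ± 3.08 TPM and overlapped both of them. At the bottom of the order Myo1d had 3.64, 5.70 and 4.18 TPM, and Myo6 (chromosome 9, 80165031 to 80311729, plus strand) had 1.37, 6.03 and 2.49. The libraries of those last 2 genes overlapped, and Myo1d was apart from Myh14 above it.

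In control nucleoplasm the order was nearly the same, with Myo10 at 91.8 ± 6.24 TPM on top and Myo1d at 3.64 ± 0.085 at the bottom, where it overlapped Myo6 at 4.75 ± 1.94. On chromatin Myh9 led with 176 ± 84.2 TPM, and Myo10, Myo1c, Myh10 and Myo5a overlapped in turn down to 87.1 ± 43.4. Myh14, Myo1e and Myo6 overlapped between 20.4 and 11.0 TPM, and Myo1d, with 4.73 ± 0.365, was apart below them. Replicate 1 decided much of the spread of some members: Myh9 on control chromatin had 274 TPM there against 131 and 124 in replicates 2 and 3, and Myo5a had 43.9 against 131 and 86.7. Myo1d showed no such split, with values of 4.73, 5.10 and 4.37. After both knockdowns Myo1d held the lowest mean of the 9 in every fraction, and in 4 of those 6 groups its libraries lay wholly below those of Myo6, the next gene. The overlapping groups were siPTBP1 NP and double knockdown CY.

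**Figure D1:**
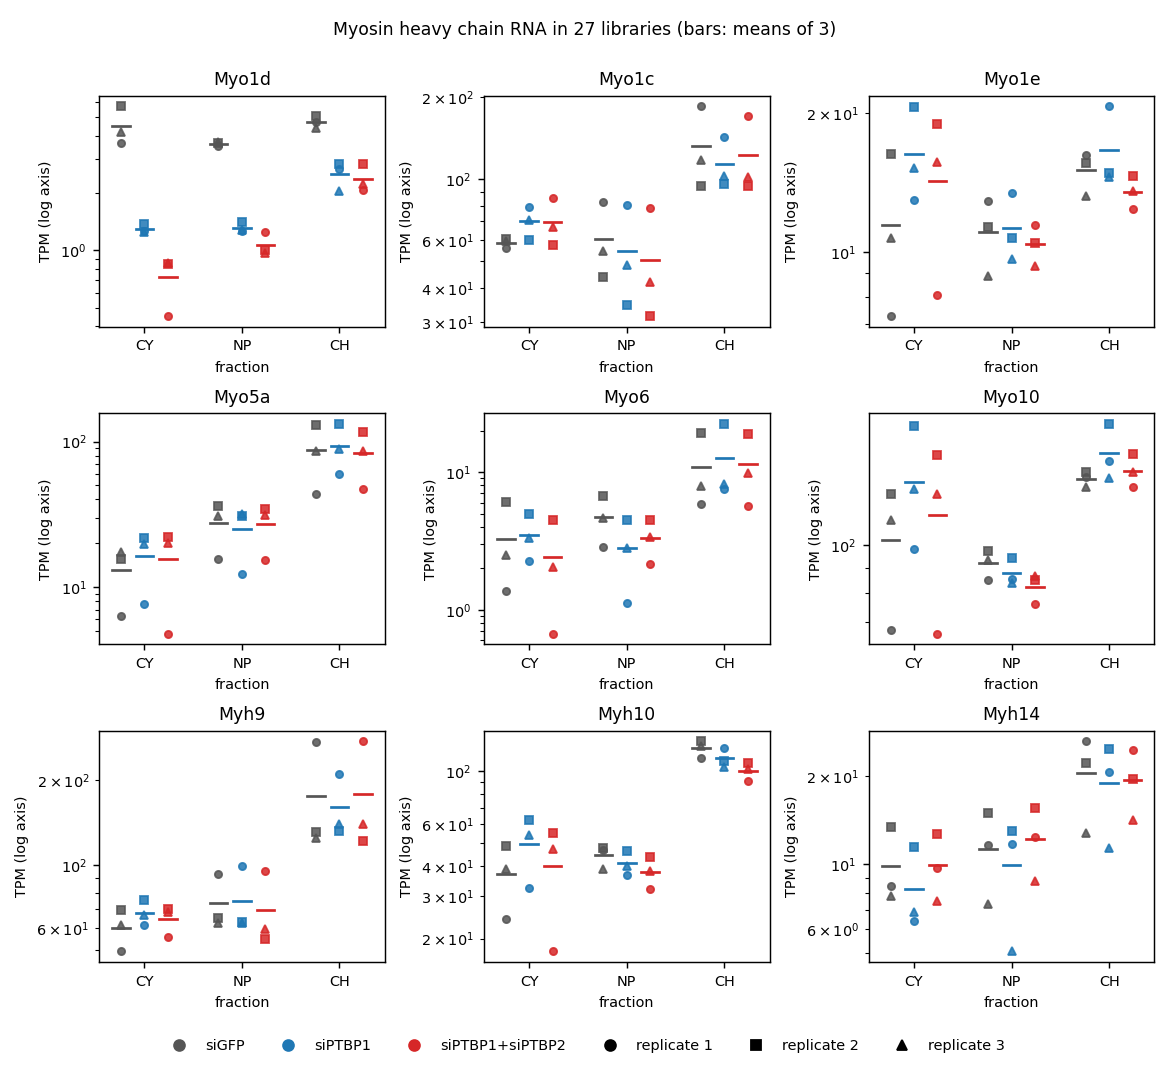
Levels of the 9 myosin heavy chains in each of the 27 libraries, in TPM on a log axis, by fraction (CY, NP, CH), with colours for treatment, symbols for replicate number and bars for the mean of 3. The Myo1d points of both knockdowns lie below all control points in every fraction, whereas the points of each of the other genes overlap between treatments except for Myh10 on chromatin in the double knockdown.

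Myo1d was lower after both knockdowns in every fraction, most in the cytoplasm and least on chromatin. In CY it went from 3.64, 5.70 and 4.18 TPM in siGFP to 1.27, 1.37 and 1.25 after siPTBP1, and to 0.45, 0.85 and 0.86 in the double knockdown. Every knockdown library was below every control library. In NP the control values of 3.55, 3.64 and 3.72 TPM compared with 1.27, 1.40 and 1.28 after siPTBP1 and with 1.24, 1.0 and 0.97 in the double knockdown. On chromatin 4.73, 5.10 and 4.37 TPM compared with 2.68, 2.85 and 2.05, and with 2.08, 2.83 and 2.22. The groups again did not overlap. The summed fibroblast markers on chromatin, of which 5 of 8 averaged at least 1 TPM and Lum was at 0, were 85 to 159 TPM in siGFP, 51.2 to 77.2 after siPTBP1 and 58.8 to 132 in the double knockdown, and their part in the Myo1d difference was not tested. Among all 20611 genes tested, 2.18%, 4.67% and 1.81% had all 3 siPTBP1 libraries below all 3 controls in CY, NP and CH, and 2.28%, 5.57% and 1.67% in the double knockdown. These libraries are bulk samples, in which fewer cells with the RNA cannot be told apart from less RNA per cell.

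As a share of control, Myo1d stood at 28.8% in CY, 36.2% in NP and 53.4% in CH after siPTBP1, and at 16.0%, 29.4% and 50.2% in the double knockdown. Set against the control of the same replicate number, the CY shares were 34.9%, 24.0% and 29.9% after siPTBP1 and 12.4%, 14.9% and 20.6% in the double knockdown. All 6 of these lay below the 6 chromatin shares, which ran from 44.0% to 56.7%. On the log2(TPM + 1) scale of the fit, which understates changes of so low a gene, the differences from siGFP were -1.24, -1.0 and -0.71 after siPTBP1 in CY, NP and CH, and -1.67, -1.17 and -0.77 in the double knockdown, each with a standard error of 0.16. With a smaller added constant of 0.1 the CY differences were -1.70 and -2.51. Among all genes tested, 67 had a more negative difference than Myo1d after siPTBP1 in CY and 26 in the double knockdown, whereas on chromatin 547 and 439 did. The 6 comparisons use the same siGFP libraries within a fraction, so they are not independent of each other.

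The difference between fractions was itself described for Myo1d. Its knockdown difference on chromatin was less negative than in CY by 0.54 after siPTBP1 and by 0.90 in the double knockdown, with a standard error of 0.23 on the log2 scale. These sizes depend on the scale: with an added constant of 0.1 they were 0.81 and 1.54, and with median ratios 0.77 and 1.12. As a ratio of fractions in TPM as deposited, chromatin held 105% of the CY level in siGFP and, in the single and double knockdown, 195% and 330%. In siGFP the median over all genes was itself higher in CH than in CY by 0.95, and 57.9% of all genes were called higher. The control CH and CY libraries overlapped, and in both knockdowns all 3 CH libraries lay above all 3 CY libraries. The share of all genes so separated is not given, so this order supports no statement that Myo1d is enriched on chromatin. Adding siRNA to Ptbp2 went with a lower CY level, at 55.5% of that after siPTBP1 alone, where replicate 1 gave 35.4% and replicates 2 and 3 gave 62.0% and 68.8%. The corresponding shares were 81.2% in NP, without overlap, and 94.1% in CH, where the libraries overlapped. Between the double knockdown and siPTBP1, limma called 0 of the 20611 genes in CY and 1 in NP. The share of all genes without overlap and the level of Ptbp2 itself in this comparison are not given.

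None of the other 8 members was called in a knockdown. By limma, 0 of the 8 passed the threshold after siPTBP1 in CY, where 0.228% of all genes did, in NP, where 0.16% did, and in CH, where 0.398% did. In the double knockdown 0 of the 8 passed in CY, NP and CH, where 0.243%, 0.155% and 0.427% of all genes passed. At an unadjusted p under 0.05 the count was 0 in each of these comparisons, and the replicate block also called 0 of the 8, where it called 1.83%, 1.88% and 2.45% of all genes after siPTBP1 and 2.65%, 1.84% and 2.12% in the double knockdown, although with the block 1 member in CY and 1 in NP had an unadjusted p under 0.05 after siPTBP1. Between the double knockdown and siPTBP1, 0 of the 8 passed in each fraction, where 0.0%, 0.00485% and 0.107% of all genes did, with 0 at an unadjusted p under 0.05. Nor did any of the 8 pass the test of a difference between the CH and the CY effect, with 0 at an unadjusted p under 0.05, where 0.0437% of all genes passed for siPTBP1 and 0.0582% for the double knockdown. A miss of the threshold does not show that a gene was unchanged, and the standard errors of these genes were 0.25 to 0.57 on the log2 scale. Set against the control of the same number, 5 of the 8 (Myh9, Myh10, Myo1e, Myo5a and Myo10) were higher after siPTBP1 in CY in all 3 pairs, as were 29.4% of all genes tested. In double knockdown NP 4 of the 8 (Myh10, Myo1c, Myo6 and Myo10) were lower in all 3 pairs, as were 25.3% of all genes. These were the largest such counts, and in each comparison 1 of the 8 went the other way. After siPTBP1, 0 were higher and 2 lower in NP, and 3 higher and 0 lower in CH. In the double knockdown 2 were higher and 1 lower in CY, and 0 higher and 1 lower in CH. The shares over all genes are not given for these comparisons, so their counts support no statement about the members.

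Among the class I motors, Myo1c in CY had 56.1, 60.3 and 59.5 TPM in siGFP and 79.2, 59.8 and 71.1 after siPTBP1 (log2 difference 0.24 ± 0.34 SE). Myo1e had 7.26, 16.3 and 10.8 TPM and 13.0, 20.6 and 15.2 (0.52 ± 0.28), the most positive difference among the 8 in that comparison. For both genes the groups overlapped, although Myo1e was at 179%, 127% and 141% of the control of the same number. Of the cargo carriers, Myo5a had 13.1 ± 5.95 TPM in siGFP CY and 16.4 ± 7.65 after siPTBP1 (0.29 ± 0.57). Myo6 in NP had 2.85, 6.73 and 4.67 TPM and 1.12, 4.49 and 2.80 after siPTBP1, lower in each of the 3 pairs of replicate numbers, and at 59.0% of control. Its difference of -0.64 ± 0.54 was the most negative of the 8 genes in the 6 comparisons (adjusted p = 1.0, and 0.0878 with the replicate block). It was also lower in all 3 pairs in double knockdown NP, at 70.3% of control, and in double knockdown CY, at 72.9%, without a call. Myo10 had 67.7, 126 and 112 TPM in siGFP CY and 97.9, 173 and 129 after siPTBP1 (0.39 ± 0.25), with overlap.

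The non-muscle myosin II genes were not called either. Myh9 in CY had 59.99 ± 9.97 TPM in siGFP, 67.8 ± 7.06 after siPTBP1 and 64.6 ± 7.79 in the double knockdown. Myh10 in CY was at 135%, 129% and 139% of the control of the same number after siPTBP1 (0.41 ± 0.31 SE, adjusted p = 1.0, and 0.595 with the block), with groups that overlapped. On chromatin it had 114, 133 and 127 TPM in siGFP and 90.6, 108 and 102 in the double knockdown, which was the only case among the 8 genes and 6 comparisons in which the groups did not overlap (1.67% of all genes lay lower without overlap in that comparison). Its level there was 80.5% of control, and its difference of -0.31 ± 0.31 did not pass (adjusted p = 1.0, and 0.642 with the replicate block). Myh14 had 9.91 ± 3.08, 8.25 ± 2.82 and 9.95 ± 2.61 TPM in CY. Over the 8 genes, the log2 differences ran from -0.24 to 0.52 after siPTBP1 in CY (median 0.27, with 0.06 over all genes), from -0.64 to 0.03 in NP (-0.14, with -0.01) and from -0.18 to 0.19 in CH (0.03, with 0.09). For the double knockdown they ran from -0.35 to 0.28 (median 0.11, with 0.00 over all genes), from -0.39 to 0.12 (-0.12, with -0.01) and from -0.31 to 0.08 (-0.04, with 0.07).

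**Figure D2:**
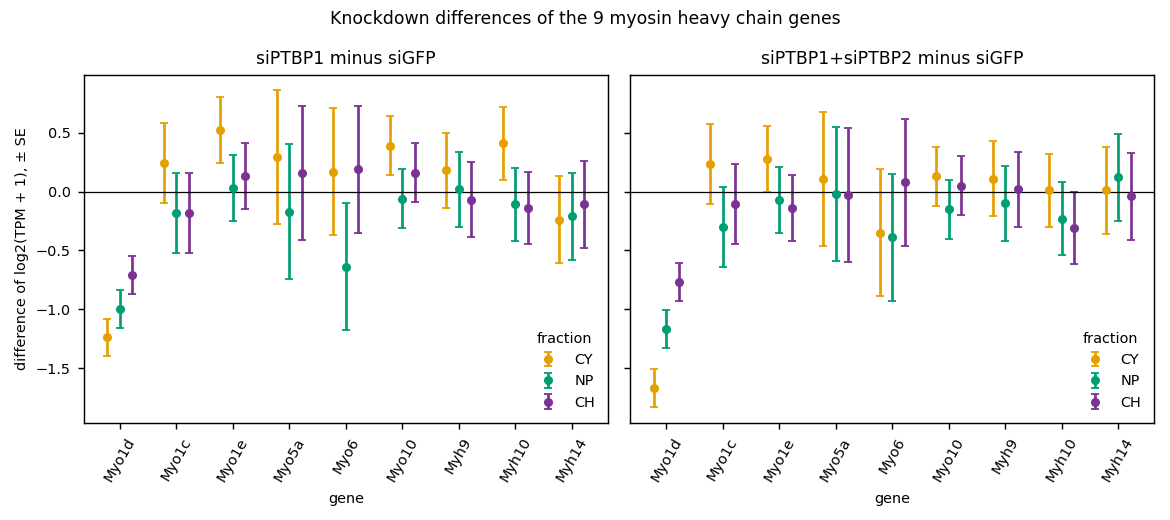
Difference of log2(TPM + 1) between each knockdown and siGFP for the 9 genes, by fraction (colours), with bars of 1 standard error from the fit across all genes. Myo1d lies between -0.71 and -1.67 in the 6 comparisons, and the other 8 genes lie between -0.64 and 0.52.

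Because Myo1d is a minor member of the family, its change moved the family's total little. It made up 1.07% ± 0.1 of the summed TPM of the 38 myosin heavy chains in control cytoplasm, and 0.266% ± 0.037 and 0.155% ± 0.027 in that of the single and double knockdown. On chromatin the shares were 0.413% ± 0.026, 0.222% ± 0.017 and 0.202% ± 0.035. The summed level of the 9 members in CY was 224, 362 and 315 TPM in siGFP and 302, 431 and 367 after siPTBP1, and the groups overlapped.

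How the members were spread over the fractions was tested in siGFP, a comparison that does not use the knockdowns. By limma, 6 of the 9 were higher on chromatin than in cytoplasm, where 57.9% of all genes were, so the count is near the background. With the replicate block 7 were, and 65.4% of all genes. Myo5a had 6.36, 15.5 and 17.5 TPM in CY and 43.9, 131 and 86.7 in CH, without overlap and higher by 2.62 on the log2 scale (adjusted p = 0.000447). Myh10 rose from 37.2 ± 12.4 to 124 ± 9.89 TPM (1.77, adjusted p = 4.86e-05), and Myh9 from 59.99 ± 9.97 to 176 ± 84.2 (1.46, adjusted p = 0.00046). Those 3 differences exceeded the median over all genes, 0.95, as did those of Myo6 and Myo1c. Myo6 (1.47, adjusted p = 0.0213), Myo1c (1.11, adjusted p = 0.00746) and Myh14 (0.95, adjusted p = 0.0299) also passed. Myo6 lost its call without replicate 1 of siGFP CY (adjusted p = 0.113), without its replicate 3 (0.0561) or without replicate 2 of siGFP CH (0.136). Myo1c lost it without replicate 1 of siGFP CH (0.0516), and Myh14 without any of 4 of the libraries (0.0862 to 0.119) or without the replicate 1 libraries (0.282). Myo10 differed by 0.45, which passed with the replicate block and not without it (adjusted p = 0.122, and 0.0343), and Myo1e by 0.43 (adjusted p = 0.182).

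Myo1d had the smallest difference of the 9 between chromatin and cytoplasm in siGFP. With 3.64, 5.70 and 4.18 TPM in CY and 4.73, 5.10 and 4.37 in CH it differed by 0.07 ± 0.16 on the log2 scale (adjusted p = 0.701), and by -0.04 without the replicate 1 libraries. These directions depend on how the fractions are scaled to each other. When the libraries were scaled by median ratios the median over all genes fell from 0.95 to 0.34, and Myo1d was lower on chromatin by -0.80 (adjusted p = 6.75e-05). With quantile normalization the median was -0.12 and Myo1d was at -1.43 (adjusted p = 2.37e-07). Called higher and lower were then Myh10 and Myo5a against Myo1d, Myo1e and Myo10 under median ratios, and Myh10, Myh9 and Myo5a against Myo1d and Myo1e under quantile normalization. Relative to all genes, Myo1d and Myo1e were below the median under each of the 3 scalings, and Myh10, Myo5a, Myh9 and Myo6 were above it.

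Chromatin was also compared with nucleoplasm, where 4 of the 9 were higher (Myh10, Myh9, Myo1c and Myo5a) and 46.0% of all genes were. With the replicate block 8 of the 9 were called, Myo1e being the exception, where 57.0% of all genes were, and Myo10 was called without the replicate 1 libraries too (0.50, adjusted p = 0.0168). Myo1d, at 3.55, 3.64 and 3.72 TPM in NP and 4.73, 5.10 and 4.37 in CH, did not overlap and differed by 0.30 (adjusted p = 0.118, and 0.0468 with the block), yet its sign turned to -0.22 with median ratios and to -0.65 with quantile normalization, where it was called lower (adjusted p = 0.00238). Between nucleoplasm and cytoplasm 0 of the 9 passed, where 12.8% of all genes did, with 0 at an unadjusted p under 0.05. With the block, Myo5a (1.04, adjusted p = 0.000132) and Myo6 (0.51, adjusted p = 0.0451) were called higher, as were 23.5% of all genes, and Myo5a also without the replicate 1 libraries (0.97, adjusted p = 0.00866). Other scalings called members lower in NP: Myo1d with median ratios (-0.58, adjusted p = 0.00859) and with quantile normalization (-0.78, adjusted p = 0.00188), and Myo10 with median ratios (-0.51, adjusted p = 0.0223).

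**Figure D3:**
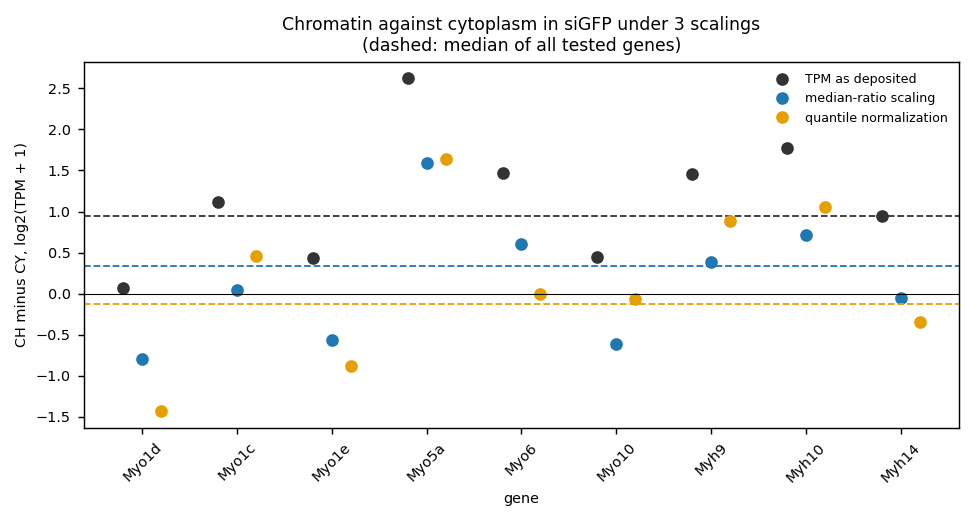
Difference of log2(TPM + 1) between chromatin and cytoplasm in siGFP for the 9 genes under 3 scalings (colours), with dashed lines at the median of all 20611 genes tested under each. Myo1d moves from 0.07 to -0.80 and -1.43 and lies below each median, as does Myo1e. Myo5a, Myh10, Myh9 and Myo6 lie above each median.

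The light chains and calmodulins, which bind the necks of these motors, were distributed the other way. In siGFP 5 of the 8 were lower on chromatin than in cytoplasm, where 8.08% of all genes were, and 0 were higher. Myl6, the essential light chain of non-muscle myosin II, fell from 599, 411 and 494 TPM in CY to 347, 145 and 193 in CH, without overlap (log2 difference -1.21, adjusted p = 0.00597). Myl12a, a regulatory light chain, went from 245 ± 7.64 to 120 ± 26.8 TPM (-1.05, adjusted p = 0.000867). The other 3 were Myl12b (-0.95, adjusted p = 0.000601), which is nearly identical to Myl12a so that their reads are hard to divide, Myl6b (-1.16, adjusted p = 0.00136) and the calmodulin gene Calm3 (-1.24, adjusted p = 0.00119). Each of the 5 remained called lower under median ratios and under quantile normalization. Calm2 (-0.68, adjusted p = 8.02e-05) was called lower as well without the replicate 1 libraries. The median difference was 1.11 over the 9 heavy chains, -1.0 over the 8 light chains and calmodulins and 0.95 over all genes, and the difference between the 2 lists was not tested.

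Outside the members, 29 other myosin heavy chain genes are in the table and 20 of them could be tested. Among the abundant ones were, as means over the 27 libraries, Myo9b at 79.2 TPM, Myo18a at 44.2, Myo19 at 28.5 and Myo1g at 13.1. Without the block, limma called 0 of the 20 after siPTBP1 in each fraction, with 4, 4 and 2 at an unadjusted p under 0.05 in CY, NP and CH. In the double knockdown 1 of the 20 was lower in CY, where 0.0922% of all genes were, and 0 passed in NP or CH, with 4 at an unadjusted p under 0.05 in each. The gene was Myo19 (ENSMUSG00000020527, chromosome 11, 84880148 to 84911226, plus strand), the motor of mitochondria, which overlaps Pigw and Znhit3 on the opposite strand. Its CY values were 7.57, 10.9 and 13.4 TPM in siGFP, 5.08, 3.44 and 6.04 after siPTBP1, and 2.89, 3.38 and 4.56 in the double knockdown, so neither knockdown overlapped the control. The double knockdown left 34.1% of control (log2 difference -1.32, adjusted p = 0.00933). This call was lost without replicate 3 of siGFP CY (adjusted p = 0.0935), without replicate 2 of double knockdown CY (0.0559), and when only the 2 groups were fitted (0.419). After siPTBP1 its difference of -0.98 did not pass (adjusted p = 0.113), but it did with the replicate block (0.00118), with median ratios (0.0268) and without the replicate 1 libraries (0.0379). The NP differences of -0.81 and -0.72 were called with the block (adjusted p = 0.308 and 0.462, and 0.00768 and 0.0201 with the block).

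On chromatin Myo19 had 64.2 ± 14.1 TPM in siGFP, 67.1 ± 13.2 after siPTBP1 and 72.8 ± 9.15 in the double knockdown, with overlap. Its libraries thus lay below the controls in CY and NP, as those of Myo1d did, but not in CH. Of the other class I motors, Myo1g, a motor of blood cells, had 9.43, 14.7 and 9.89 TPM in siGFP CY and 5.0, 5.64 and 4.71 after siPTBP1, without overlap (-0.99, adjusted p = 0.113, 0.0183 with the block, and 0.0446 without the replicate 1 libraries). Myo1f, also known from blood cells, had 4.36, 4.38 and 6.44 TPM in siGFP CY and 3.09, 2.63 and 3.97 after siPTBP1 (-0.51, adjusted p = 0.885, and 0.0376 with the block). It was also lower on chromatin than in CY in siGFP (-0.71, adjusted p = 0.00469), the only one of the 20 to be called lower there, while 15 were called higher, where 8.08% and 57.9% of all genes were. With median ratios 9 of the 20 were called higher and 1 lower (38.9% and 21.8% of all genes), and with quantile normalization 4 and 4 (23.9% and 31.2%). The smooth muscle gene Myh11 stayed under 2 TPM in every library: on chromatin it had 0.30, 0.58 and 0.38 TPM in siGFP and 0.92, 1.79 and 1.67 in the double knockdown (0.78, adjusted p = 0.123, 0.00196 with the block, and 0.0147 without the replicate 1 libraries). The block also called it higher after siPTBP1 in CH (0.58, adjusted p = 0.0154, and 0.0483 without the replicate 1 libraries) and in NP of both knockdowns (0.50 and 0.53, adjusted p = 0.0415 and 0.0323). Myo5c was called lower by the block after siPTBP1 in NP (-0.79, adjusted p = 1.0, and 0.0376).

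Genes that regulate, fold or load the motors were counted from lists. Of the 8 light chains and calmodulins, 1 rose in CY after each knockdown, where 0.16% of all genes did after siPTBP1 and 0.15% in the double knockdown. It was the regulatory light chain Myl9, which went from 12.3, 3.61 and 9.84 TPM to 98.1, 66.8 and 138 after siPTBP1 (log2 difference 3.48, adjusted p = 0.00215) and to 66.7, 61.1 and 119 in the double knockdown (3.19, adjusted p = 0.00523). The NP and CH differences of Myl9, 1.61 to 2.09, were called with the block (0.000239 to 0.00336). Without it the siPTBP1 difference in CH was called when replicate 1 of siGFP CH was left out (2.48, adjusted p = 0.0423). The remaining 7 were not called in any fraction. Of the 11 regulators of myosin II tested, 1 rose in CY after each knockdown. It was Ppp1r12b (ENSMUSG00000073557, chromosome 1, 134754658 to 134955942, minus strand), a targeting subunit of the phosphatase that acts on the regulatory light chain. It had 0.39, 0.70 and 0.77 TPM in siGFP CY, 2.77, 3.71 and 3.02 after siPTBP1 (1.36, adjusted p = 0.00328) and 2.06, 3.94 and 3.05 in the double knockdown (1.29, adjusted p = 0.00523, and 0.0559 without replicate 2 of that group). Its NP differences were 0.89 in each knockdown (0.133 and 0.139, and 0.00566 and 0.00586 with the block), and they were also called with median ratios (0.0096 and 0.00963) and with quantile normalization (0.0467 and 0.0454). The libraries did not overlap in CY or NP, and on chromatin, where it was at 7.37 ± 2.43, 9.03 ± 2.25 and 8.79 ± 0.706 TPM, they did. Dapk3, a kinase of the light chain, had CY differences of 0.77 and 0.78, which the block called (0.0131 and 0.00941) and the fit without it did not (1.0 in each).

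Of the 16 adaptors and folding factors tested, 1 fell in CY after siPTBP1, where 0.0679% of all genes did. In the double knockdown 0 passed in CY, with 3 at an unadjusted p under 0.05. It was Unc45a (ENSMUSG00000030533, chromosome 7, 80325292 to 80341005, minus strand), the chaperone that folds myosin heads. Its CY values were 33.4, 29.5 and 32.4 TPM in siGFP, 12.1, 10.4 and 8.60 after siPTBP1 (log2 difference -1.54, adjusted p = 0.0233) and 19.9, 10.3 and 8.50 in the double knockdown (-1.32, adjusted p = 0.0757, 0.000214 with the block, and 0.00112 without the replicate 1 libraries). Neither knockdown overlapped the control. In NP it stood at 45.8% and 35.5% of control, with differences of -1.10 and -1.43 that were called with the block (0.251 and 0.0591, and 0.00204 and 0.000168 with the block) and without the replicate 1 libraries (0.0031 and 0.00098). The siPTBP1 call in CY was lost with median ratios (adjusted p = 0.127), with quantile normalization (0.274), and without any of 5 of its 6 libraries (0.0771 to 0.183). Gipc1, an adaptor of Myo6, had 106 ± 20.7 TPM in siGFP CY and 163 ± 53.0 in the double knockdown (0.59, adjusted p = 1.0, and 0.0107 with the block). When only the 2 groups of a comparison were fitted, the calls of Myl9 (adjusted p = 0.177 and 0.334), Ppp1r12b (0.0971 and 0.347) and Unc45a (0.0745) were lost as well, and the double knockdown call of Myl9 was also lost with quantile normalization (0.0631).

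**Figure D4:**
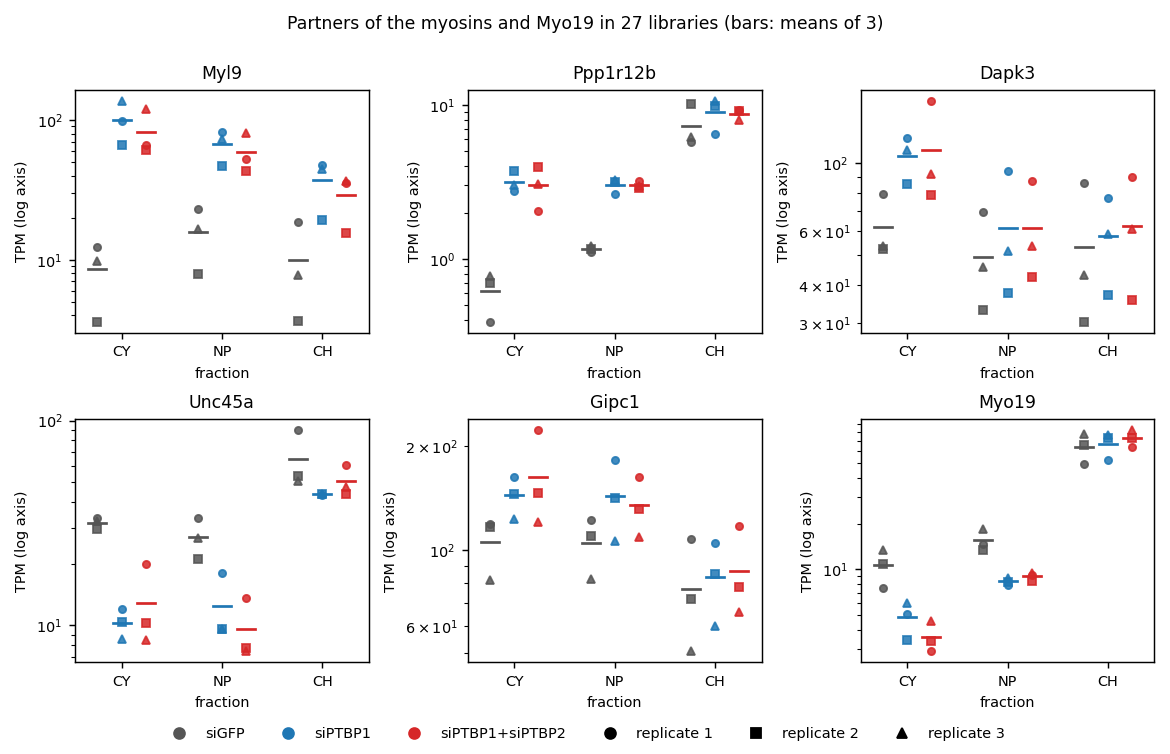
Levels of Myl9, Ppp1r12b, Dapk3, Unc45a, Gipc1 and Myo19 in each of the 27 libraries, in TPM on a log axis, by fraction, with colours for treatment, symbols for replicate number and bars for the mean of 3. In CY all knockdown points of Myl9 and Ppp1r12b lie above the controls and all those of Unc45a and Myo19 below them, and on chromatin the Ppp1r12b and Myo19 points overlap.

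The genes whose levels ran most like Myo1d were found by Pearson's r of log2(TPM + 1) over the 27 libraries after each fraction's mean was subtracted. They were Iqgap1, a scaffold of actin and calmodulin (r = 0.94), Myof, a membrane repair protein (0.92), Tmem81 (0.90), the transcription factor Grhl1 (0.89) and the thymidylate synthase Tyms (0.89). These points share their libraries and their 9 groups, so r is a description, and since the genes were chosen for it their knockdown differences are given with no test. Iqgap1 had 19.8 ± 8.06 TPM in siGFP CY and 6.13 ± 1.28 after siPTBP1 (log2 difference -1.48), and on chromatin 106 ± 8.22 and 48.8 ± 3.32 (-1.11). Its mean was lower than control in all 3 fractions, and its chromatin level in siGFP was far above that in CY, where Myo1d had near equal levels. Tyms had 134 ± 9.57 TPM in CY and 54.3 ± 8.76 after siPTBP1, but on chromatin 43.2 ± 4.06 and 37.3 ± 5.12. The other members ran less like Myo1d by this measure: Myo6 had r = 0.30, Myh10 0.20 and Myh14 0.13, and the remaining 5 lay between -0.06 and 0.06. The members were chosen by the same knockdown values that enter r, so their low r supports no statement about the family.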

How the data were processed

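The table was deposited by the authors and holds TPM per gene, the only unit used. Per the submitters' processing notes STAR, kallisto and mm10 were used, and their versions and roles are not given in the sources used here. Per the labels' protocols polyA+ RNA was made into stranded libraries. TPM keeps no depth, so no counting error can be given, and gene values do not separate spliced from unspliced RNA. Symbols, coordinates and transcripts come from GENCODE M21 (GRCm38), which held 53274 of the 53379 gene IDs, and the sequences shown come from its transcripts.

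Samples were grouped by their titles. The 20611 genes that reached 1 TPM in 3 or more of the 27 libraries were tested. Values were transformed to log2(TPM + 1) and analysed in R 4.3.3 by limma 3.58.1 (trend and robust settings, two-sided), with 9 group means, which leaves 18 residual degrees of freedom. A gene is called at a Benjamini-Hochberg adjusted p under 0.05 over all genes tested, and a p-value reflects only how these libraries vary. The limma fit was tested on simulated data with known shifts.

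Libraries with the same replicate number correlated in their deviations from the group means (108 pairs, lowest r 0.13, median 0.365), and all 27 libraries had their highest correlation within their number. On that ground the numbers were used to pair samples for shares of control and in the replicate block. The main fit has no term for the number, so its calls and adjusted p-values leave this pairing out. After siPTBP1 in CY the main fit called 0.228% of all genes and the block 1.83%, so how many genes are called depends on this choice. The meaning of a number is not given in the labels. The replicate block adds the number to the model (16 residual degrees of freedom), and its value is given beside a result where it changes the call. Other alternatives were an added constant of 0.1, no filter, median-ratio scaling, quantile normalization, a fit of only the groups compared, and leaving out libraries.

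The members and lists were chosen with earlier results of these data known. Genes were named by rule: the 9 members, other myosin heavy chains that were called or among the 5 with the highest mean, up to 4 genes with the smallest adjusted p from each list of partners, and the 5 genes most like Myo1d among those with a mean of at least 1 TPM. Myo1a was added for the sequence it shares. A few genes covered by this rule are not reported here. Marker lists of neuron, trophoblast, endoderm and brush border were summed as well: in siGFP CY they held 247 to 316, 32.0 to 47.3, 3.75 to 6.73 and 11.8 to 16.3 TPM, and after siPTBP1 269 to 315, 31.3 to 62.8, 6.46 to 9.12 and 10.6 to 14.0 TPM. Other fractions differed. The trophoblast sum spread widely between replicates, from 46.6 to 239 TPM in siGFP NP, 40.6 to 544 in siGFP CH and 26.1 to 294 in siPTBP1 CH. The muscle sum on chromatin was 111 to 185 TPM in siGFP and 110 to 195 after siPTBP1. Their part in the knockdown differences was not tested.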

Additional observations from a re-analysis of the deposited data

Results flagged for a closer look

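Whether the knockdown difference of Myo19 was the same in CH and CY depended on the model. In the double knockdown its difference from siGFP was higher in CH than in CY by 1.51 on the log2 scale, and a test of that difference passed with the replicate block (limma, adjusted p = 0.00149) and not without it (adjusted p = 0.129). In CY its 3 double knockdown libraries lay below the 3 controls, and in CH they overlapped them.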

How the results depend on the processing

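The count of the 8 members other than Myo1d called in a knockdown comparison was 0 in each of the 11 such comparisons under each alternative run. Counts between fractions moved, and so did the share over all genes. For CH against CY, 57.9% of all genes were called higher with TPM as deposited, 38.9% with median ratios and 23.9% with quantile normalization. Shares under these scalings are not given for the other fraction comparisons, so their counts support no statement about the members. For NP against CY, the 0 of 9 became 2 lower with median-ratio scaling, 1 lower with quantile normalization, 2 higher with the replicate block and 1 higher without the replicate 1 libraries. For CH against NP, the 4, all higher, became 1 higher with median ratios, 2 with quantile normalization (Myh10 higher and Myo1d lower) and 8 higher with the block, and 3 to 4 when a library was left out. For CH against CY, the 6 ranged from 4 to 7 when a library was left out. Signs turned for CH against CY in Myh14 (-0.05 with median ratios, -0.34 with quantile normalization), Myo1d (-0.80 and -1.43), Myo1e (-0.56 and -0.88) and Myo10 (-0.61 with median ratios), and for CH against NP in Myo1d (-0.65 with quantile normalization). Signs also turned where neither fit made a call: for CH against CY in Myo10 (-0.07 with quantile normalization), for CH against NP in Myo1d (-0.22) and Myo10 (-0.10) with median ratios, Myo1e (-0.19 and -0.42) and Myh14 (-0.02 with quantile normalization), and for NP against CY in Myh10 (-0.10) and Myh9 (-0.12) with median ratios, Myh14 (-0.22 and -0.32) and Myo6 (-0.04 with quantile normalization). The Myo1d difference between the double knockdown and siPTBP1 on chromatin turned from -0.06 to 0.04 without the replicate 1 libraries. Its differences from siGFP kept their sign in each alternative. Leaving out a library gave -1.36 to -1.09 for siPTBP1 in CY and -1.79 to -1.52 for the double knockdown. Without the replicate 1 libraries they were -1.35 and -1.67. The cause of these shifts was not tested. Levels near 1 TPM, such as Myo1d in the knockdowns, rest on an unknown number of reads.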

Other observations

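The nearest tested genes on each side of Myo1d on chromosome 11 were not called in either knockdown in any fraction. Psmd11, a proteasome subunit (80428615 to 80473248), had a cytoplasmic mean of 223.5 TPM in control cells, and 246.9 and 220.6 TPM in the single and double knockdown. Tmem98 (80810175 to 80822033), on the far side of Myo1d, had 16.5, 22.8 and 26.2 TPM. The log2 differences of Cdk5r1, an activator of a neuronal kinase (80477023 to 80481184), ran from 0.07 to 0.26. The smallest adjusted p among the 4 neighbours by limma was 0.139, for Tmem132e in NP of the double knockdown. Tmem132e lies much farther away than the others (82388900 to 82446332). Cdk5r1 and Tmem132e were near the floor, at 0.51 and 0.017 TPM in siGFP CY, so their lack of a call says little.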
